A study of Caenorhabditis elegans with 2 samples.

Results

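Divergent promoter peaks are places where the tagged transcription factor MLS-2 was found in a stretch of chromosome that serves as upstream sequence for genes on both strands. They were chosen by position alone from the authors' thresholded list of peaks in ce11 (WBcel235). A peak was taken when it lay on an autosome, when its summit was more than 200 bp from any tRNA, snoRNA, snRNA or miRNA gene, and when the summit fell in the promoter windows of at least 1 plus-strand and at least 1 minus-strand gene. The window of a gene covers 1000 bp before and 100 bp after each annotated 5′ end of its protein-coding transcripts. This rule found 217 of the 1925 peaks (11.3%, 95% exact binomial interval 9.89 to 12.8). They made up 34.3% of the 632 autosomal promoter peaks away from small RNA genes, and the other 415 lay in windows of genes on a single strand. Those 415 are called single-direction promoter peaks here. The remaining peaks were 603 autosomal peaks outside promoter windows, 204 near small RNA genes and 486 on the X chromosome.

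The chromatin came from embryos of Caenorhabditis elegans strain OP645, genotype unc-119(tm4063) III; wgIs645, in which an integrated transgene makes MLS-2 fused at its C terminus to a GFP-FLAG tag. Embryos of all stages and of both sexes were collected 2 h after egg bleaching, sheared by sonication and precipitated with an antibody against GFP, in 1 group of 2 biological replicates. With a single group there is no comparison of conditions, an untagged strain was not analysed here, and whole embryos do not show which cells a peak comes from. The signal of a peak is the authors' own score, whose scaling is not stated, so signals are compared within a list only. The depth is unknown, since read totals were not analysed here. A p-value below counts regions of the pooled list, or of a named replicate's list, and not animals.

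The worm genome is compact, and many neighbouring genes are arranged head to head, with their 5′ ends facing each other across a short shared stretch. Such a stretch can carry the start sites and control sequences of both genes, and housekeeping genes often sit in such pairs in animal genomes. Many worm transcripts are trans-spliced, so that the annotated 5′ end can lie downstream of the place where transcription starts. MLS-2 belongs to the HMX (NKX5) homeodomain proteins and is known for its part in patterning the postembryonic mesoderm and in specifying certain neurons and glia. Proteins of the wider NKX class in mammals bind sequences with the core CAAGTG, and CAATTAA is labelled HMX-type here. These names are labels only, and they do not divide the sequences between HMX proteins and other NKX proteins. Which of these sequences MLS-2 itself binds was not tested.

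The windows below lie around summits on the plus strand of ce11, 5′ to 3′, and were cut where they would have run past an annotated 5′ end. Peaks are named by the nearest plus-strand gene and then the nearest minus-strand gene. Capitals mark matches, on either strand, to the motifs tested below. The first set shows 4 of the strongest divergent peaks, which have G- and C-rich summits and in 3 cases hold a copy of GGGCGG (also read as CCGCCC), with CAAGTG (also read as CACTTG) in 2 of them.
atx-2/ecps-1, chrIII:10461276-10461376: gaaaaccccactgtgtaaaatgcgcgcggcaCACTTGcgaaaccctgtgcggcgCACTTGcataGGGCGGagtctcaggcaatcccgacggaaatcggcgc
idhg-1/mlcd-1, chrIII:4568703-4568796: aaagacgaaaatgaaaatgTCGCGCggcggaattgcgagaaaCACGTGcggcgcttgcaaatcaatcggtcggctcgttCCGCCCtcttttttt
hach-1/nmad-1, chrIII:5555091-5555191: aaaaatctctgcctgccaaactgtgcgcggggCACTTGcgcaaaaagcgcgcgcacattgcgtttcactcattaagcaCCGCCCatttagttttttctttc
tasp-1/K01G5.10, chrIII:10759200-10759300: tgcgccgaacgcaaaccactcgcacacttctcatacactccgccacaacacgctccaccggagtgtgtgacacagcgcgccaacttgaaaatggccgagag
The next windows show a GAGAGA repeat at mtss-1/mig-22 and a CAAGTG copy with no other tested motif at jmjd-1.2/F29B9.11.
mtss-1/mig-22, chrIII:8768032-8768132: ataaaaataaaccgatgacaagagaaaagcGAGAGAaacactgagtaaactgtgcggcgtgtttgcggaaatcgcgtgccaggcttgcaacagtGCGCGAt
jmjd-1.2/F29B9.11, chrIV:4660484-4660584: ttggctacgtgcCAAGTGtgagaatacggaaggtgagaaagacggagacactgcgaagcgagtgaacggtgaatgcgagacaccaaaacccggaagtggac
A further set shows peaks with a chaperone gene on at least 1 side, all of which hold TTCNNGAA, a pair of heat shock element units in opposite orientation. Capitals here also mark TTCNNGAA and CTGCGTC (also read as GACGCAG). Only 4 of the 12 peaks counted for chaperone genes below hold TTCNNGAA, so these windows are not typical of them.
F44E5.5/F44E5.4, chrII:11759422-11759522: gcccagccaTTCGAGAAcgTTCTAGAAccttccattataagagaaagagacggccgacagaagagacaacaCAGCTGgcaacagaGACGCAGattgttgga
hsp-16.41/hsp-16.2, chrV:1805105-1805177: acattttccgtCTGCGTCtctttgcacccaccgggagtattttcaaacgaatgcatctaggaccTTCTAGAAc
hsp-90/C47E8.4, chrV:14685753-14685853: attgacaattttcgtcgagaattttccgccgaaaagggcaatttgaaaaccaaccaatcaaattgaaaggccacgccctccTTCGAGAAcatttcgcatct
The last windows hold the HMX-type motif CAATTAA (also read as TTAATTG).
C24F3.2/tram-1, chrIV:10222200-10222300: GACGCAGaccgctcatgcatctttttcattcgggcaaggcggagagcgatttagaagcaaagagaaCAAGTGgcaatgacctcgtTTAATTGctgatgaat
rps-3/sna-3, chrIII:6206398-6206498: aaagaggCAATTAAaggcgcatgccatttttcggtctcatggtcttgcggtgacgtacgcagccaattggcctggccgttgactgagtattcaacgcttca
The strongest peak in a very short shared stretch was at uncp-18/ears-2, where all 91 bases between the facing 5′ ends are shown and the capital marks the summit base.
uncp-18/ears-2 between 5 prime ends, chrIV:390469-390559: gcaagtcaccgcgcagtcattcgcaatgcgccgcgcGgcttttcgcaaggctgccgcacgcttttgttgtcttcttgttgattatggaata

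The rule nearly fixes that a summit lies in the space that the paired genes share, and so the following counts describe the peaks and test nothing. In 206 of the 217 peaks (94.9%, interval 91.1 to 97.4) the summit fell between the 5′ end of a minus-strand gene on its left and that of a plus-strand gene on its right. In the other 11 the summit lay past the annotated 5′ end of at least 1 of the nearest genes. Of all 217 summits, 193 (88.9%) were outside every protein-coding gene body, and 15 (6.91%) were in an exon, against 32 of 415 (7.71%) for single-direction peaks. In 199 peaks exactly 1 gene on each strand had the summit in its window, and 444 genes were reached in all. The distance between the facing 5′ ends had a median of 539 bp over the 206 peaks, from 92 to 1658 bp. The nearer 5′ end was a median of 169 bp from the summit and the farther a median of 366 bp, which put the nearer end at a median of 32.2% of the distance. The nearer end cannot lie past the middle, so this share has no test. The plus-strand gene was the nearer one in 115 of 216 peaks (53.2%, interval 46.4 to 60.0), with no lean to either strand beyond the interval.

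**Figure D1:**
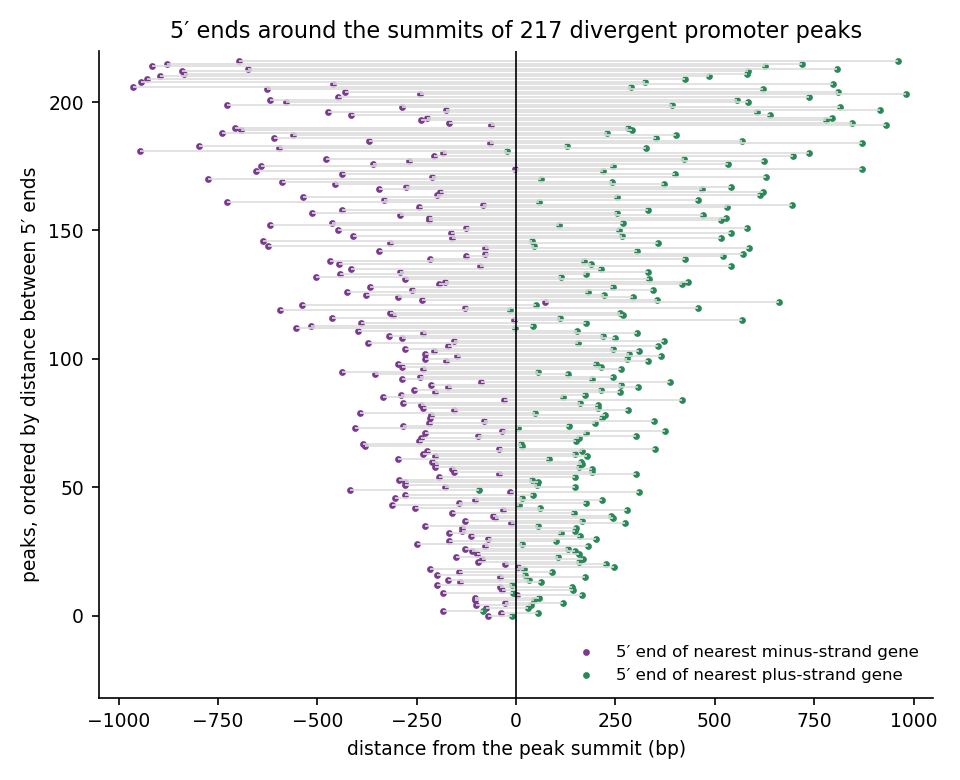
Distance in bp from each summit (0 on the horizontal axis) to the 5′ end of the nearest minus-strand gene (purple) and of the nearest plus-strand gene (green), 1 line for each of the 217 peaks, ordered by the distance between both ends. In 206 peaks the summit lies between both ends, and 186 of the 217 summits lie within 300 bp of the nearer end.

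The nearer promoter was close in most peaks and both were close in few. A summit within 100 bp of the nearer 5′ end was seen in 73 peaks (33.6%), and within 100 bp of both ends in 4 (1.84%). At 200 bp these numbers were 133 (61.3%) and 38 (17.5%). Among the 206 peaks with the summit between the ends, the shortest distances were 92 bp at uncp-18/ears-2, 107 bp at micu-1/Y67H2A.2 and 138 bp at srrt-1/let-504. The gene uncp-18 encodes a syntaxin-binding protein of the Munc18 family, ears-2 a mitochondrial glutamyl-tRNA synthetase, micu-1 a regulator of calcium uptake into mitochondria, and srrt-1 a homolog of the RNA processing factor Serrate. Peaks with the summit past an end included shorter distances, 60 bp at Y57E12AL.1/Y57E12AL.6 and 101 bp at lelo-4/tiar-1. The longest were 1658 bp at ptp-5.3/hasp-2, 1598 bp at rab-5/nmat-2 and 1541 bp at C04G6.2/pld-1. At rab-5/nmat-2, which pairs a small GTPase of early endosomes with an enzyme of NAD synthesis, the summit was 720 bp from the plus-strand and 878 bp from the minus-strand 5′ end. At the edges of the rule, the summit closest to a small RNA gene was at klc-1/let-70, 220 bp away with a signal of 324. A further 9 peaks met the promoter rule but were left out for a small RNA gene within 200 bp, the farthest of them 126 bp away with a signal of 656. The summit farthest from its second promoter was at sfxn-1.2/lir-3, 980 bp away with a signal of 237.

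Summits were set 5.11 times as densely in divergent stretches as in single-direction windows. Divergent stretches covered 1.91 Mb, 2.32% of the autosomes, and held 113 summits per Mb (95% exact Poisson interval 98.9 to 130). Single-direction windows covered 18.7 Mb with 22.2 summits per Mb (20.1 to 24.4), and the other autosomal sequence 61.5 Mb with 9.81 per Mb (9.04 to 10.6). The intervals of the 3 kinds of sequence did not overlap. Outside exons the densities were 143 summits per Mb (124 to 164) in divergent stretches and 28.9 (26.1 to 32.0) in single-direction windows. Divergent stretches lie closer to 5′ ends by construction, so both were also compared in bins of distance to the nearest 5′ end, outside exons. From 200 up to 300 bp the density was 228 per Mb in divergent stretches (54 summits, 171 to 297) and 45.9 per Mb in single-direction windows (71 summits, 35.9 to 58.0). Below 50 bp it was 174 per Mb (119 to 245) against 28.6 (18.1 to 43.0). From 300 up to 400 bp it was 64.5 per Mb (32.2 to 115) against 35.7 (26.6 to 46.8), and there the intervals overlapped. In the farthest bin, 600 up to 1000 bp, only 5 summits lay in divergent stretches, at 47.1 per Mb (15.3 to 110) against 17.9 (14.1 to 22.5).

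**Figure D2:**
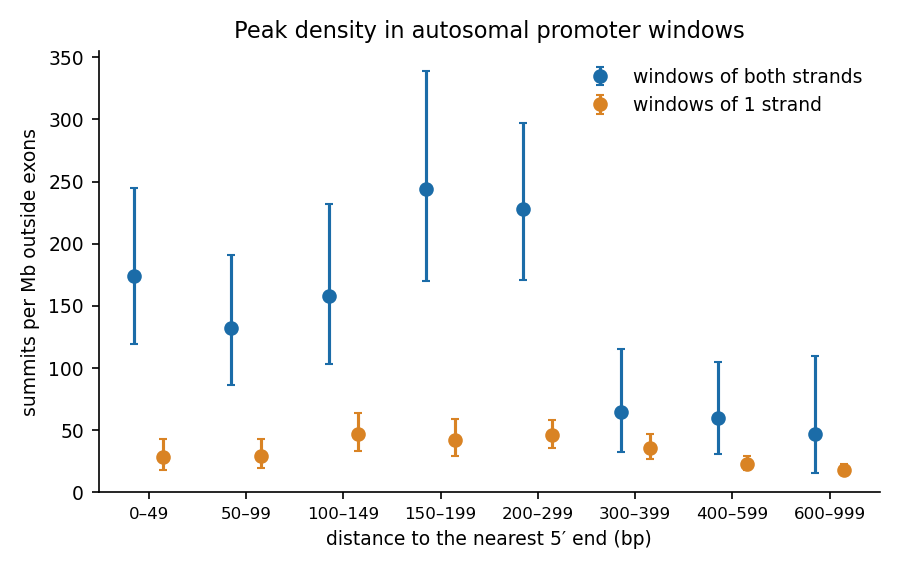
Summits per Mb outside exons (vertical axis) by distance in bp to the nearest annotated 5′ end (horizontal axis), in autosomal stretches covered by promoter windows of both strands (blue) and of 1 strand (orange). Bars are 95% exact Poisson intervals; the blue points lie above the orange intervals in every bin, and the intervals of both kinds are apart in every bin below 300 bp.

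Only a minority of shared promoters held a peak. The autosomes had 2805 divergent segments with a median length of 700 bp, and 213 of them held a summit (7.59%, interval 6.64 to 8.64), which is the background for every count of segments here. By chromosome the share was 11.6% of 518 segments on chromosome I (interval 8.96 to 14.7), 9.39% of 458 on III, 7.65% of 536 on IV, 6.95% of 547 on II and 4.16% of 746 on V (2.84 to 5.85). Chromosomes I and V were the extremes and their intervals did not overlap, while II, III and IV had overlapping intervals. By the distance between 5′ ends, the share was 4.48% of 201 segments below 200 bp, 11.7% of 410 from 200 bp, 13.5% of 422 from 400 bp, 10.3% of 388 from 600 bp and 9.43% of 297 from 800 bp. It was 2.91% of the 1064 segments with 1000 bp or more between the ends (interval 1.99 to 4.11). That interval lay below those of all bins from 200 to 1000 bp, but windows of genes farther apart than 1000 bp overlap over a shorter stretch the farther apart they are, so these segments hold less sequence. The interval for the closest ends (2.07 to 8.33) overlapped the bins from 600 and 800 bp. Where the ends are close, the stretch inside both windows is shorter too, so the segments below 200 bp also hold less sequence.

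In 4 segments there was a second summit. These segments were at ndua-2/dnj-29, taf-4/pqn-59, jmjd-1.2/F29B9.11 and mut-15/fib-1. At ndua-2/dnj-29 on chromosome I, which pairs a subunit of respiratory complex I with a J-domain co-chaperone, the summits had signals of 807 and 291. The stronger was 170 bp from the 5′ end of dnj-29 and the weaker 155 bp from that of ndua-2. At mut-15/fib-1 on chromosome V, which pairs a gene of small RNA silencing with fibrillarin, an enzyme of ribosomal RNA modification, the signals were 436 and 221. At jmjd-1.2/F29B9.11 on chromosome IV, a histone demethylase gene beside a subunit of cytochrome c oxidase, they were 414 and 230. The first of these summits held CAAGTG and the second held CTGCGTC. In 4 cases the intervals of 2 divergent peaks overlapped, so that such peaks are not independent regions.

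Divergent peaks were spread over the whole range of strength. Their pooled signal had a median of 307, from 212 to 1647, and that of single-direction peaks a median of 287, from 212 to 2014. They were 4 of the 20 strongest peaks of the whole list and 12 of the 100 strongest. In groups of 385 peaks from the strongest to the weakest their shares were 12.2%, 13.0%, 11.4%, 12.5% and 7.27%, lowest in the weakest group. The interval of that group (4.89 to 10.3) overlapped that of the strongest (9.11 to 15.9). Such an overlap does not show that the shares are equal, and the drop was not tested. Of the 217 peaks, 135 had an interval of 470 bp, the widest among them, and in all 135 the summit was within 2 bp of the middle. How finely such a summit places the protein was not tested.

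The 4 strongest divergent peaks came in the same order in both replicates, with somewhat lower ranks in replicate 2. At atx-2/ecps-1 (III 10461095–10461525) the signal was 1061 in replicate 1 and 588 in replicate 2, at ranks 11 and 15, and the summit was 63 bp upstream of atx-2, the gene for ataxin-2, an RNA-binding protein. At idhg-1/mlcd-1 (III 4568570–4568926) it was 947 and 475, at ranks 15 and 20, with the summit 44 bp upstream of idhg-1, which encodes part of the mitochondrial NAD-dependent isocitrate dehydrogenase. The gene on its other strand, mlcd-1, encodes malonyl-CoA decarboxylase of mitochondria and had its 5′ end 623 bp away. At uncp-18/ears-2 (IV 390316–390684) the signals were 885 and 400, at ranks 18 and 34. At tasp-1/K01G5.10 (III 10759052–10759444), where tasp-1 encodes a homolog of the protease taspase, they were 832 and 384, at ranks 19 and 41. All 4 were within the best 41 regions of each replicate.

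After a gap in signal the following peaks were hach-1/nmad-1 at 967, pcrg-1/E04F6.6 at 905, Y51F10.11/spe-48 at 876, sre-1/B0495.9 at 856, ndua-2/dnj-29 at 807 and tre-1/dad-1 at 798. The gene hach-1 encodes a mitochondrial enzyme of valine breakdown, tre-1 a trehalase and dad-1 a subunit of the complex that adds sugar chains to new proteins. Each of these except pcrg-1/E04F6.6 held GGGCGG at the summit. The other peaks among the 20 strongest were K11H12.8/rpl-15, his-68/his-67, C16C10.4/rnf-121, F44E5.5/F44E5.4, hsp-60/Y22D7AL.10, mtss-1/mig-22, hsr-9/rps-19, Y17G9B.5/rpl-20, Y111B2A.12/epc-1 and lin-35/vps-51, with signals from 756 down to 593. Of these genes, mtss-1 encodes the mitochondrial single-stranded DNA-binding protein, epc-1 a homolog of Enhancer of polycomb, and lin-35 the retinoblastoma protein of the worm. The summits nearest to a 5′ end among the 20 strongest were 36 bp from spe-48 and 37 bp from ears-2.

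The thresholded list was made from both replicates, so agreement between them was part of how the peaks were chosen, and these counts are a description. A summit within 100 bp was among the 1925 strongest regions of replicate 1 for 196 peaks (90.3%, interval 85.6 to 93.9) and of replicate 2 for 166 (76.5%, 70.3 to 82.0). It was in both for 153 (70.5%, 64.0 to 76.5) and in neither for 8. For single-direction peaks the share in both was 63.4% (58.5 to 68.0), which overlaps that of divergent peaks. With all 30000 regions of each replicate's list, 208 divergent peaks (95.9%) were found in both. Over those 208 peaks Spearman's rho between the replicate signals was 0.74 and Pearson's r of log2 signals was 0.83, as a description across peaks that share their libraries. The median signal was 209 in replicate 1 and 107 in replicate 2, on scales that differ between the lists, and 131 of 208 peaks had the better rank in replicate 1.

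**Figure D3:**
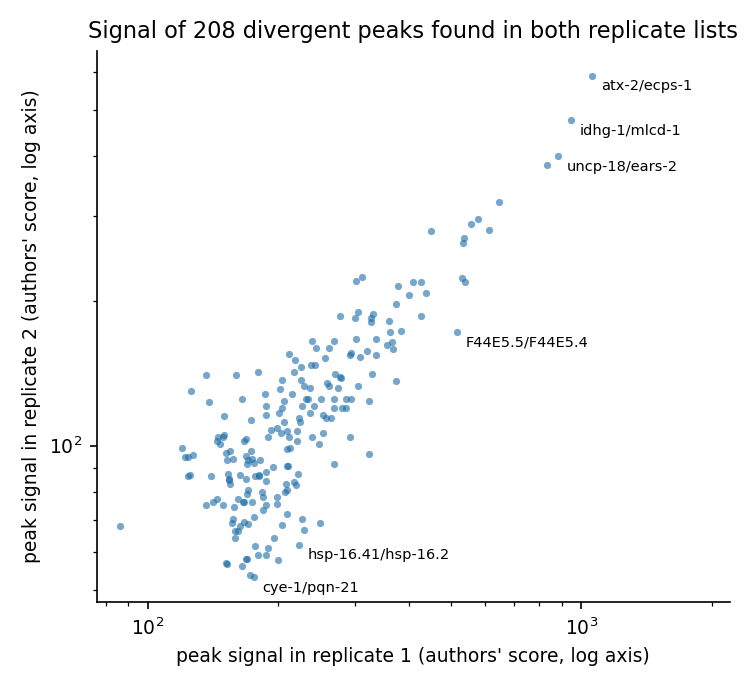
Signal of 208 divergent peaks in replicate 1 (horizontal) and replicate 2 (vertical), both the authors' score on log axes, 1 point per peak, with pairs named in the text labelled. The 4 strongest peaks have the same order in both lists, and the spread grows toward the weak end, where cye-1/pqn-21 has 176 in replicate 1 and 53.2 in replicate 2.

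The peaks that the replicates ranked most differently were all weak. At cye-1/pqn-21, where cye-1 encodes cyclin E, the rank was 1242 in replicate 1 and 5861 in replicate 2. At fkb-6/F31D4.2, where fkb-6 encodes an immunophilin, the ranks were 1302 and 5726. At D1007.15/Y119C1B.10 the order was turned, with ranks of 7158 and 2927. At cls-2/R107.5, where cls-2 encodes a CLASP microtubule regulator, they were 939 and 4663, and at the weaker mut-15/fib-1 peak 1447 and 5069. A summit was missing from at least 1 full list in 9 peaks, among them taf-4/pqn-59, with a pooled signal of 363, where replicate 2 had none within 100 bp. At cav-2/C56A3.6, with a pooled signal of 226, neither replicate had one.

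The sequence at these summits was rich in G and C against the shared promoters around them. In a window of 101 bp the G and C content was 48.1% ± 7.37 (mean and SD, n = 217 windows), and in 2460 divergent segments with no summit it was 34.4% ± 8.40. At single-direction summits it was 49.2% ± 7.65 (n = 415). In steps away from the summit the mean content of 51-bp windows fell from 51.0% at the summit to 34.1% at 100 bp on the left and 33.6% at 100 bp on the right. The CpG dinucleotide, set against the number that C and G content would give, had a median ratio of 1.31 at divergent summits, 1.18 at single-direction summits and 1.07 in segments with no summit.

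Within 50 bp of the summit, with both strands searched, 6 of 12 motifs were more frequent than in divergent segments with no summit and 4 less frequent (two-sided Fisher's exact test, with Benjamini-Hochberg adjustment over 12 motifs). The 12 motifs were chosen with earlier results of these data known. The p-values here and below are therefore descriptive. The GC box GGGCGG was in 34 of 217 divergent peaks (15.7%) and in 1.87% of 2460 segments with no summit, an odds ratio of 9.73 (95% interval 5.90 to 15.93, adjusted p = 1.3e-16, exact test). CTGCGTC was in 18 peaks (8.29%) and 0.935% of segments, an odds ratio of 9.57 (4.78 to 18.88, adjusted p = 1.7e-09, exact test). The NKX-type core CAAGTG was in 35 peaks (16.1%) and 4.02% of segments, an odds ratio of 4.58 (2.94 to 7.02, adjusted p = 5.2e-10, exact test). TCGCGC was in 8.76% against 2.40%, GAGAGA in 16.1% against 5.77%, and the E-box CAGCTG in 5.07% against 1.71%, with odds ratios of 3.90, 3.14 and 3.07. At least 1 of these 6 motifs was in 112 divergent peaks (51.6%) and in 14.9% of segments with no summit, whereas 92 peaks held none of the 12. Of the summits 85.7% lay within 300 bp of the nearer 5′ end, and control windows were not matched for that distance. A part of distance in these odds ratios cannot be told apart from that of the peak.

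The 4 less frequent motifs were mostly rich in A and T. TGATAA, the core bound by GATA factors, was in 1.84% of divergent peaks and 10.7% of segments with no summit. The TATA-type TATAAA was in 4.61% and 13.3%, and TAATTA, a core common to many homeodomain proteins, in 1.38% and 6.59%. The E-box CACCTG was in 0 of 217 divergent peaks, which allows a share of up to 1.38% by a limit of 3 counts (1.69% as the upper bound of the exact binomial interval), and in 2.60% of segments. The HMX-type motif CAATTAA was in 7 peaks (3.23%, interval 1.31 to 6.53) and 3.62% of segments, an odds ratio of 0.89 (0.34 to 1.94, adjusted p = 1.0, exact test), and CACGTG did not pass either. Because the summits differ from these segments in G and C content, the test was repeated over windows of 45 to 55% G and C, 109 peaks and 233 segments. There 3 motifs passed the exact test, GGGCGG (20.2% against 6.44%, adjusted p = 0.0034), CTGCGTC (8.26% against 0.858%, adjusted p = 0.0047) and CACCTG (0 against 5.15%, adjusted p = 0.046). CAAGTG had 15.6% against 7.73% there (odds ratio 2.20, adjusted p = 0.10) and GAGAGA 16.5% against 13.3% (adjusted p = 0.76, exact test).

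**Figure D4:**
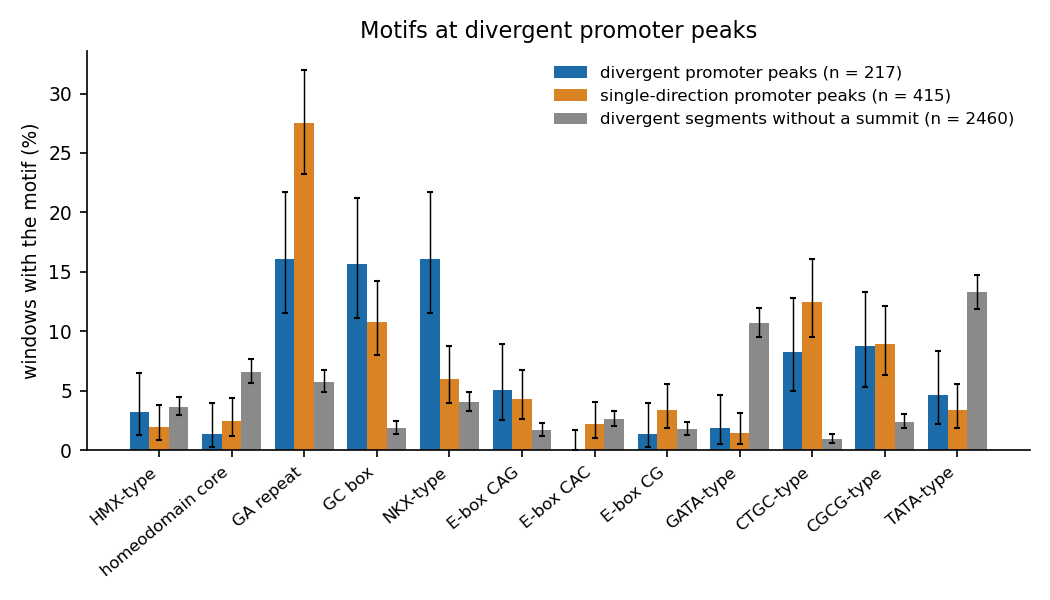
Percentage of 101-bp windows with each of 12 motifs (vertical axis) in divergent promoter peaks (blue), single-direction promoter peaks (orange) and divergent segments without a summit (grey), with 95% exact binomial intervals. The GA repeat is GAGAGA, the homeodomain core TAATTA, the CTGC-type CTGCGTC and the CGCG-type TCGCGC. The E-boxes CAG, CAC and CG are CAGCTG, then CACCTG, then CACGTG, and the NKX-type core (CAAGTG) is at 16.1% in divergent and 6.02% in single-direction peaks.

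Against single-direction peaks, whose G and C content was close to theirs, divergent peaks differed in 2 of the 12 motifs. CAAGTG was in 35 of 217 divergent peaks (16.1%) and 25 of 415 single-direction peaks (6.02%), an odds ratio of 2.99 (95% interval 1.69 to 5.39, adjusted p = 0.0010, Fisher's exact test with Benjamini-Hochberg). GAGAGA went the other way, with 16.1% of divergent and 27.5% of single-direction peaks, an odds ratio of 0.51 (0.32 to 0.79, adjusted p = 0.0092, exact test). GGGCGG had 15.7% and 10.8% (odds ratio 1.53, 0.91 to 2.53, adjusted p = 0.27, exact test), so that no difference was shown. CAAGTG also passed among the regions of replicate 1 alone (odds ratio 2.26, adjusted p = 0.014) and of replicate 2 alone (2.84, adjusted p = 0.0028, exact test). Divergent summits lay closer to a 5′ end, with a median of 162 bp against 293 bp, and the test was therefore repeated for summits within 300 bp of an end, 186 divergent and 210 single-direction peaks. CAAGTG kept an odds ratio of 3.01 (1.51 to 6.32, adjusted p = 0.011), and GAGAGA had 0.65 (0.38 to 1.09, adjusted p = 0.26, exact test) and no longer passed.

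CAAGTG was most frequent near the summit. In 51-bp windows it was in 21 of 217 peaks at the summit (9.68%) and in 22 at 25 bp to the left, in 3 at 100 bp to the left and in 1 at 100 bp to the right. Farther to the left there were 12 peaks (5.53%) at 225 bp and 9 at 250 bp, and on the right there were 0 at 225 bp and 1 at 250 bp. Neighbouring windows overlap and can count the same copies, and left and right follow the plus strand of the genome. These positions were picked from the whole profile, and the difference was not tested. Of the 35 peaks with a copy, 1 had 2 copies, atx-2/ecps-1, where both are seen in the sequence printed above. The 35 peaks included 11 that also held GGGCGG and 3 that held GAGAGA. Their pooled signal had a median of 362, from 220 to 1647, against 301 for the 182 peaks without it, and the ranges of both overlapped nearly whole. Both replicates' top lists had 26 of the 35 (74.3%, interval 56.7 to 87.5). By chromosome the share of divergent peaks with CAAGTG was highest on I, with 13 of 62, and was 16.3% on III, 15.6% on V, 14.3% on IV and 10.5% on II, with overlapping intervals.

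The genes beside the CAAGTG peaks had varied roles. After atx-2/ecps-1, hach-1/nmad-1 and ndua-2/dnj-29 came mex-1/W03C9.5, with a signal of 540, where mex-1 encodes a CCCH zinc finger protein that acts in the early embryo. The summit of this peak was 916 bp from mex-1 and 177 bp from W03C9.5. Genes of protein synthesis with a CAAGTG peak were rpl-1, rpl-12, rpl-24.1, rps-1, rps-10, eef-2, eif-3.D and mrpl-45. Genes of RNA processing and decay were smg-2, rnp-6, pfs-2 and syf-2, of which smg-2 encodes the nonsense-mediated decay helicase. Genes of energy metabolism were atp-1, cox-6B and hxk-2. The NKX-type core was nearest to the summit at Y62E10A.23/Y62E10A.20, with its middle 1.5 bp away. These genes were named after their values were seen, and no list was tested on them.

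The 7 peaks with the HMX-type motif CAATTAA were of middle or low strength. They were C24F3.2/tram-1 with a signal of 414, elof-1/lin-7 with 398, Y92H12BR.3/Y92H12BR.2 with 371, rps-3/sna-3 with 361, T06D8.9/rpn-9 with 268, C01G10.7/ahsa-1 with 267 and exos-3/nlp-4 with 241. Ranks in the pooled list ran from 431 to 1469. The gene tram-1 encodes a protein of the endoplasmic reticulum translocon, elof-1 a transcription elongation factor, lin-7 a PDZ scaffold protein, rpn-9 a subunit of the proteasome lid and exos-3 a subunit of the RNA exosome.

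Gene lists were drawn up by symbol, and for each the share of its genes that had a divergent peak in their window was set beside the same share over all genes. Of the 5461 genes with an autosomal divergent window, 444 had such a peak (8.13%, interval 7.42 to 8.89), which is the background for these counts. Lists were chosen with results known, so the shares are a description, with no test. In 17 of the 217 peaks both nearest genes were in a list, so a single peak can count more than once.

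Genes of protein synthesis had shares from 13.3% to 38.5%. Among cytosolic ribosomal proteins 20 of 52 genes had a divergent peak (38.5%, lower bound of the interval 25.3), from 18 peaks. The strongest were at rpl-15 (signal 756), rps-19 (624) and rpl-20 (618), with signals of 539, 409 and 426 in replicate 1 and 219, 219 and 186 in replicate 2. In 2 peaks both neighbours were ribosomal protein genes, rps-30/rpl-39 with a signal of 251 and rpl-24.1/rps-10 with 238. Among translation factors 7 of 22 genes had one (31.8%, 13.9 to 54.9), though only 3 of 21 (14.3%) with windows of 500 bp upstream, led by erfa-3 (565), a release factor, iff-2 (453), an eIF5A gene, and eif-3.D (338). For the mitochondrial ribosome it was 4 of 30 (13.3%, 3.76 to 30.7), led by mrpl-12 (337), mrps-34 (254) and mrpl-39 (248), and for tRNA synthetases 2 of 15, ears-2 (1289) and nars-1 (226). The latter 2 intervals include the background.

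Chaperone genes were the next list. A divergent peak was in the window of 12 of 36 chaperone genes (33.3%, interval 18.6 to 51.0), on 12 peaks. The 3 strongest were dnj-29 (807), hsp-60 (653) and cct-8 (501). Mitochondrial chaperonin hsp-60 faces Y22D7AL.10, annotated as its 10-kDa partner, across 813 bp, with the summit 192 bp from the latter, and the signal was 439 in replicate 1 and 208 in replicate 2. The small heat shock genes hsp-16.41 and hsp-16.2 face each other across 221 bp, with a pooled signal of 283, and 223 and 62.2 in the replicates, at ranks 722 and 3759. Outside the symbol list, and named after its values were seen, F44E5.5/F44E5.4 joins genes that are both annotated as Hsp70, 351 bp apart, with a signal of 682, and 516 and 172 in the replicates. Its printed window holds 2 copies of TTCNNGAA. That motif, added after the data were seen, was at 4 of 12 chaperone peaks (33.3%, 9.92 to 65.1) and 9 of the other 205 (4.39%, 2.03 to 8.17). Over all divergent peaks it was at 5.99%, against 5.69% of segments with no summit.

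**Figure D5:**
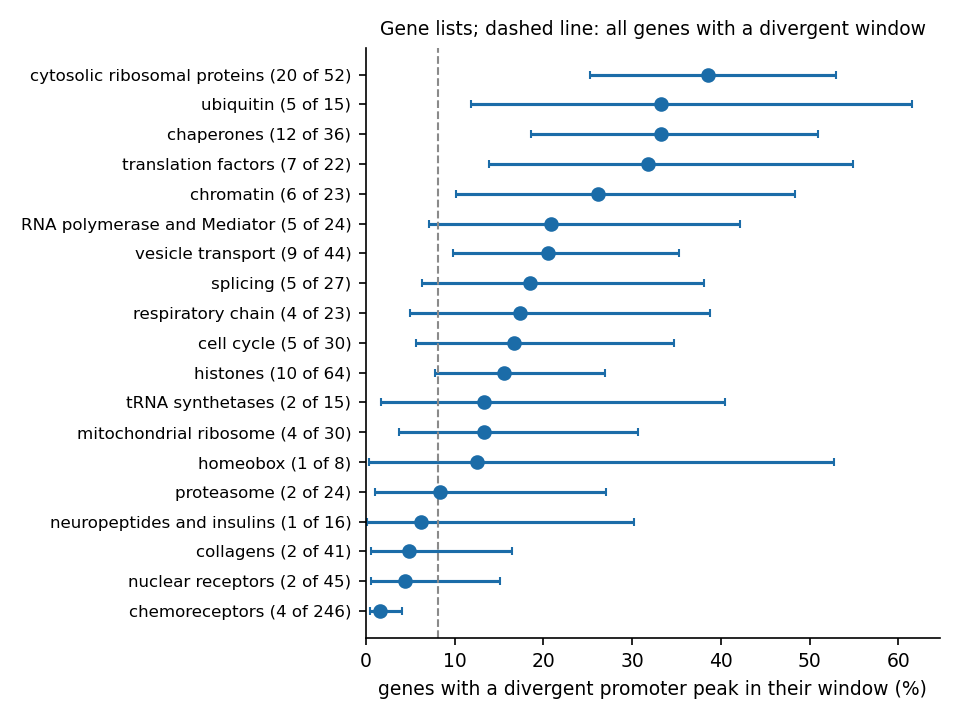
Percentage of genes with an autosomal divergent window that have a divergent promoter peak in it (horizontal axis), for 19 lists drawn up by symbol, with 95% exact binomial intervals and, in brackets, the number of genes. The dashed line is the share over all genes, 8.13%; cytosolic ribosomal proteins are at 38.5% and chemoreceptors at 1.63%.

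Genes of chromatin, transcription, RNA processing and the cell cycle had shares from 16.7% to 26.1%. Chromatin genes had 6 of 23 (26.1%, interval 10.2 to 48.4), or 4 of 23 (17.4%) in the list of replicate 2 alone. They were led by lin-54 (400), a DNA-binding subunit of the DRM complex, set-21 (365) and cec-5 (316). The lin-54 and set-21 peaks were nearer to ribosomal protein genes and count for that list too. Their summits were 43 bp from rpl-12 and 350 bp from lin-54, and 86 bp from rpl-7A and 168 bp from set-21. RNA polymerase and Mediator genes had 5 of 24 (20.8%, 7.13 to 42.2), led by mdt-19 (419), mdt-9 (406) and mdt-6 (380). Splicing genes had 5 of 27 (18.5%, 6.30 to 38.1), led by snr-1 (509), with rsp-1 and rsp-2, SR protein genes, on either side of a single peak (449). Cell cycle genes had 5 of 30 (16.7%, 5.64 to 34.7), led by lin-35 (593), mcm-10 (415) and cdk-9 (396), the last in the list by symbol although it encodes a kinase of transcription elongation. The intervals of the latter 3 lists include the background of 8.13%.

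Core histone genes, which lie in clusters of head-to-head pairs, had 10 of 64 (15.6%, interval 7.76 to 26.9). That interval includes the background of 8.13%, and it takes the genes as independent. These 10 genes share 5 peaks, since both neighbours were histones each time, at his-68/his-67 (752), his-62/his-61 (516), his-32/his-31 (326), his-59/his-60 (280) and his-5/his-6 (228). The genes his-67 and his-68 encode histones H4 and H2A. Histone clusters are repeated in the genome, and 31-base words of the his-5/his-6 window occurred in up to 14 genomic copies. The labels do not say how reads that fit several copies were placed. Such words were in more than 1 copy in 6 of the 217 windows.

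Ubiquitin, vesicle transport, respiratory chain and proteasome lists ranged from 8.33% to 33.3%. Ubiquitin pathway genes had 5 of 15 (33.3%, interval 11.8 to 61.6), but 3 of 15 in the list of replicate 2 alone and 1 of 15 (6.67%) among the 962 strongest peaks, where the share over all genes was 4.58%. The list was led by uba-2 (300), ubc-12 (290) and uba-5 (266), enzymes that activate or conjugate ubiquitin-like proteins. Vesicle transport genes had 9 of 44 (20.5%, 9.80 to 35.3), led by vps-51 (593), rab-7 (540) and snx-13 (509), and respiratory chain genes 4 of 23 (17.4%, 4.95 to 38.8, which includes the background), led by cox-6B (437), atp-1 (295) and mev-1 (274). Proteasome genes had 2 of 24 (8.33%), rpn-3 (324) and rpn-9 (268), close to the background, and 3 of 24 (12.5%) in the list of replicate 1 alone.

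Among lists of receptors, collagens, signalling peptides and homeobox genes, 1 had an interval below the background. Chemoreceptor genes had 4 of 246 (1.63%, interval 0.445 to 4.11), which lies below the background, and these were sre-1 (856), sri-5 (526), srh-16 (264) and srr-10 (254). The summit of the first was 931 bp from sre-1 and 63 bp from B0495.9 on the other strand. Nuclear receptor genes had 2 of 45 (4.44%), nhr-47 (404) and nhr-59 (220), collagen genes 2 of 41 (4.88%), col-38 (303) and col-71 (301), neuropeptide and insulin genes 1 of 16 (6.25%), nlp-4 (241), and homeobox genes of the ceh series 1 of 8 (12.5%), ceh-38 (324). The intervals of these 4 lists include 8.13%. For nuclear receptors the list of replicate 1 alone gave 1 of 45 (2.22%) and that of replicate 2 alone 3 of 45 (6.67%). At nhr-47 the facing gene was the chaperone gene dnj-19, and at col-38 it was rpl-5, so that the same peak counts for 2 lists.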

How the data were processed

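Peak lists of MLS-2 ChIP-seq were deposited by the authors in narrowPeak format, with a score per peak whose scaling is not stated. Per the deposited file descriptions, each replicate list and the pooled list (30000 regions each) hold peaks and background made with a control alignment, and the optimal list (1925 peaks) was thresholded by the irreproducible discovery rate. No caller, threshold, aligner or version is given in the sources used here, and depth is unknown. The ce10 lists were not used.

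Summits were placed on WBcel235 with Ensembl release 115 (19973 protein-coding genes) using Python 3.11.15, NumPy 2.4.6 and SciPy 1.17.1, and figures were drawn with Matplotlib 3.10.9. Divergent segments are autosomal stretches inside promoter windows of both strands and over 200 bp from small RNA genes. Control windows of 101 bp stood at the centre of segments with no summit and were not matched to the summits in distance to a 5′ end. Motifs were tested with Fisher's exact test, adjusted over 12 motifs. The test was checked with control windows drawn at random as false members, with and without a motif written in. That check cannot show an effect of distance to a 5′ end. Intervals cover counting error only and take regions or genes as independent. Replicate regions matched within 100 bp. The 31-base words were counted over both strands of the genome.

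The peaks, motifs and 19 lists were chosen with earlier results of these data known. Symbols that fit the chemoreceptor pattern but encode other proteins, such as srrt-1, were left out of that list. Named are the 20 strongest peaks, the top 3 per list, peaks with CAATTAA, the 3 longest and 3 shortest distances between ends (of the 206 peaks with the summit between them) and the 5 largest rank differences. Other genes were named after their values were seen: the genes of CAAGTG peaks, of segments with a second summit, of peaks missing from a replicate, at the edges of the rule, and further chaperone, histone and ribosomal peaks.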

Additional observations from a re-analysis of the deposited data

How the results depend on the processing

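No paired analysis was possible because the series has 1 group. With promoter windows of 500 bp upstream there were 144 divergent peaks (28.3% of autosomal promoter peaks), and among the 962 strongest peaks there were 120, with 4.24% of segments and 4.58% of genes with a divergent window reached. With 2000 bp upstream the density ratio of divergent to single-direction sequence was 3.38. Using the list of a single replicate gave 193 to 217 divergent peaks, 6.74% to 7.56% of segments, a density ratio of 4.59 to 5.03 and 7.18% to 8.13% of genes. Replicate agreement was 62.7% for matches within 50 bp and 95.9% with all regions. Of the 12 motifs, 8 to 9 passed in single-replicate lists, and 3 in windows of 45 to 55% G and C, a setting added after the data were seen. Against the flanks 350 bp away 8 passed (exact McNemar test), although 44.7% of flank centres were in exons against 12.5% of control centres. Odds ratios that changed direction were CAATTAA 1.75 (flanks) and 1.43 (45 to 55% G and C), CACGTG (0.58 to 1.06 in single-replicate lists), TATAAA 1.23 (45 to 55% G and C) and TTCNNGAA 0.84 (962 strongest) and 0.80 (45 to 55% G and C), and none of these passed; the cause was not tested. CAAGTG against single-direction peaks passed in all 6 alternatives run, with odds ratios of 2.26 to 4.29. GAGAGA lost its call in the 962 strongest peaks (0.47, adjusted p = 0.078) and within 25 bp of the summit (0.60, adjusted p = 0.38), by Fisher's exact test. Against segments with no summit 7 motifs passed within 25 bp of the summit or control centre. There TCGCGC (2.22, adjusted p = 0.14), TAATTA (0.26, adjusted p = 0.066) and CACCTG (adjusted p = 0.14) lost their calls by the exact test. CAGCTG lost its call in the list of replicate 2 alone (1.78, adjusted p = 0.23) and against flanks (3.67, adjusted p = 0.076), TATAAA against flanks (0.50, adjusted p = 0.15), and CACCTG in the list of either replicate (0.17 and 0.40) and in the 962 strongest peaks (adjusted p = 0.14), all by exact tests. Among the 962 strongest peaks translation factors had 4 of 22 (18.2%) and cytosolic ribosomal proteins 12 of 52 (23.1%).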
